A study of Mus musculus with 4 samples.

Results

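The cycling nuclei of the mouse lung were taken out of 4 single-nucleus RNA-seq libraries by the RNA of 10 mitotic genes and described by lineage, by their S and G2M genes and by genotype. A barcode counted as a cycling nucleus when it had 1500 or more UMIs (unique molecular identifiers, 1 per captured RNA molecule) and 5 or more UMIs in sum over Mki67, Top2a, Kif11, Cenpf, Aspm, Anln, Kif15, Knl1, Cenpe and Diaph3, from at least 3 of these genes. This held for 1810 of the 134745 barcodes with 1500 or more UMIs. WT replicate 1 had 254 of 26933, WT replicate 2 had 527 of 38543, Tg replicate 1 had 411 of 25269 and Tg replicate 2 had 618 of 44000. When 5 UMIs were asked of each of 3 genes, 120 barcodes were left, so the sum over the 10 genes was used.

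The study asked how senescent endothelial cells act on the lung vessels in pulmonary hypertension. It set 2 WT mice (C57/BL6J) beside 2 VEcad-TRF2DN-Tg mice, called Tg below, in which the VE-cadherin promoter drives a dominant-negative TRF2, a telomere-binding protein, in endothelial cells. The labels gave an age of 8 to 9 weeks and lung as the tissue for both groups, and per the study's methods male mice were used and the sequenced lungs came from mice kept in chronic hypoxia. Both genotypes therefore shared the hypoxia, and no normoxic mouse was sequenced. The RNA of the transgene was not a feature of the count tables. The mouse gene Terf2 had 81 and 353 UMIs in the cycling nuclei of the WT mice and 142 and 232 in those of the Tg mice, and its log2 fold change was -0.11 ± 0.23 (SE, edgeR quasi-likelihood test, adjusted p = 0.81).

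A cell that divides copies its DNA in S phase and then, through G2, builds the spindle, condenses its chromosomes and parts in mitosis. The genes of both stages are switched on in waves. E2F factors turn on the replication genes around the G1/S transition once cyclin-dependent kinases have inactivated the Rb family, and the MuvB complex with B-Myb and FoxM1 turns on the mitotic genes later. Most lung cells are at rest, while alveolar macrophages keep their number by dividing in the alveoli and dendritic cell and lymphocyte pools hold dividing cells.

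The libraries held between 125261739 and 182014706 UMIs. UMIs of the barcodes ranked 45000 to 90000 by total were summed in each library as a measure of free RNA. The deepest of them held 1178 and 1296 UMIs in WT mice and 988 and 1474 in Tg mice. Barcodes with 1000 or more UMIs numbered 55760, 53903, 44103 and 65138 in the same order. In all but Tg replicate 1 the sum thus took in such barcodes. They may be nuclei, and their part in the sum was not tested. The globin genes made up 2.95 and 3.18 UMIs per 10000 of the free RNA in WT mice and 78.4 and 46.9 in Tg mice, so the free RNA differed between the genotypes. A cluster of 38733 barcodes that no lineage led was almost all from the WT mice (15072 and 23534 barcodes, against 10 and 117 in Tg mice), and a cluster of 10962 barcodes led by mitochondrial and ribosomal genes, whose highest marker list was the erythroid one, was mostly from Tg replicate 2 (10059). They held 34 and 3 cycling nuclei. Any pair of libraries shared 176 to 475 barcodes with 1500 or more UMIs, and no barcode was a cycling nucleus in more than 1 library.

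The promoters of the genes that picked the nuclei were searched for elements known from cell cycle genes. The CHR (cell cycle genes homology region, TTTGAA), where MuvB binds, and the CCAAT box, where NF-Y binds, were searched on both strands in the RefSeq promoter table (build GRCm38.p6, 250 bases before to 50 bases after the start). All 10 genes of the rule matched the table. The CHR letters were found in 8 of the 10 and the CCAAT letters in 7 of the 10, both in 5, against 18.1%, 37.9% and 7.12% of the promoters of 27025 genes. Among the other genes, 27 of 41 matched G2M promoters (65.9%) and 5 of 31 matched S promoters (16.1%) held the CHR letters. The CCAAT letters were found in 31 of the 41 and 22 of the 31, so their share was about as high in S as in G2M promoters. The E2F letters TTTNGCGC were found in 1 of the 10 (Kif15), 3 of the 41 G2M, 6 of the 31 S and 1.38% of all promoters. A match is a description of letters and does not show a bound site. The promoters of Top2a (chr11:99024140-99024439, minus strand), Kif11 (chr19:37376132-37376431, plus strand) and Cenpf (chr1:189688037-189688336, minus strand) are given 5′ to 3′, because their RNA helped to pick the nuclei and they hold both elements. Capitals mark the CHR and CCAAT letters on either strand.
Top2a: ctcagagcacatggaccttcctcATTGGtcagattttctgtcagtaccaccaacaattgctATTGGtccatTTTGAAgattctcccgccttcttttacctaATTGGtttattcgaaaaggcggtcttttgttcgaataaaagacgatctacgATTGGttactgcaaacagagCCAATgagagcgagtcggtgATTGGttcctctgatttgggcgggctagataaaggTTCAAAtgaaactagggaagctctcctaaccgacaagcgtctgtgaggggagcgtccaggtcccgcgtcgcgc
Kif11: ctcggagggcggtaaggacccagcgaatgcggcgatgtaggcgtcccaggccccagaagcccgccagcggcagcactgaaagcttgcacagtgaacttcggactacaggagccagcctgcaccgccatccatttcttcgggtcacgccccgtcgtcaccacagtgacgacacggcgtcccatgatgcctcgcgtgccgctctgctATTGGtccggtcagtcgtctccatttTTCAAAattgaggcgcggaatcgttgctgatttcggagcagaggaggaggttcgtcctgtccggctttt
Cenpf: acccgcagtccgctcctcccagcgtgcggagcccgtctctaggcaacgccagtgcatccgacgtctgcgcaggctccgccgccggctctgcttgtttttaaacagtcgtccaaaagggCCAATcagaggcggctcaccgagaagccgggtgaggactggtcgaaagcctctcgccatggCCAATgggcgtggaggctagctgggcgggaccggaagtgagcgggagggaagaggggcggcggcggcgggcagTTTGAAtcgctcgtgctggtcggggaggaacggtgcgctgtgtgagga
The CHR letters began 23 bases before the start of Top2a, 19 bases before that of Kif11 and at base 3 of Cenpf, with a further copy at -179 in Top2a, whose window also held 6 CCAAT boxes.

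The 10 genes of the rule chose the nuclei, so their levels against the other nuclei are a description with no test. Mki67, which coats mitotic chromosomes as the Ki-67 protein, stood at 156 and 179 CPM (UMIs of the gene per 1000000 UMIs of the nuclei) in the cycling nuclei of the WT mice and at 342 and 240 in those of the Tg mice. The other nuclei of named lineages had 10.3, 26.04, 19.2 and 22.1 CPM of it in the same order, and the free RNA had 20.4, 50.7, 42.5 and 40.2. Both Tg mice were thus above both WT mice in the cycling nuclei, and the other nuclei lay below the free RNA in every mouse. Between the genotypes the edgeR quasi-likelihood test called 0 of the 10. The rule set a minimum of their UMIs in every nucleus of both genotypes. This call and the order of the mice are therefore a description too, and show neither a difference nor its absence. Mki67 had a UMI in 62.9% of the cycling nuclei (48.0% and 63.0% in WT mice, 70.6% and 63.8% in Tg mice) and in 3.38% to 9.71% of the other named nuclei, whose median depth was lower (2671 UMIs against 4334). The other 672 cycling nuclei had no Mki67 UMI and rested on the other 9 genes of the rule. Top2a, the topoisomerase that untangles sister DNA, stood at 366, 266, 485 and 326 CPM. Kif11, the kinesin that pushes the spindle poles apart, stood at 276, 200, 299 and 230. Diaph3, a formin that builds actin filaments, was ordered the other way, at 811 and 648 in WT mice and 514 and 543 in Tg mice. The same order held for Diaph3 in the free RNA, with 83.3 and 86.8 in WT mice and 20.5 and 31.0 in Tg mice.

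The remaining genes of the rule build the kinetochore and the spindle or close the cell in cytokinesis. Knl1, the scaffold of the outer kinetochore, was 35.4 times as high in the cycling as in the other named nuclei, on UMIs summed over the 4 mice as for all such ratios below. The ratio was 17.8 for the kinetochore motor Cenpe, 16.01 for the kinetochore protein Cenpf, 17.5 for the spindle pole protein Aspm, 27.9 for the spindle kinesin Kif15 and 16.01 for anillin (Anln), which shapes the contractile ring. All 10 genes had a UMI in 75 nuclei. Just inside the threshold were 250 nuclei with 5 UMIs of the 10 genes, and just outside it 486 barcodes with 4 UMIs from 3 or more genes. Their median levels were close, at 14.1 and 12.8 UMIs of the 10 genes per 10000, while the median of all cycling nuclei was 26.2. The threshold is a fixed number of UMIs, so it took in deeper barcodes more easily. The median depth of the cycling nuclei was 3938.5, 6076, 3327 and 4623.5 UMIs and that of all other barcodes 1856, 1955, 2502 and 2511.

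**Figure D1:**
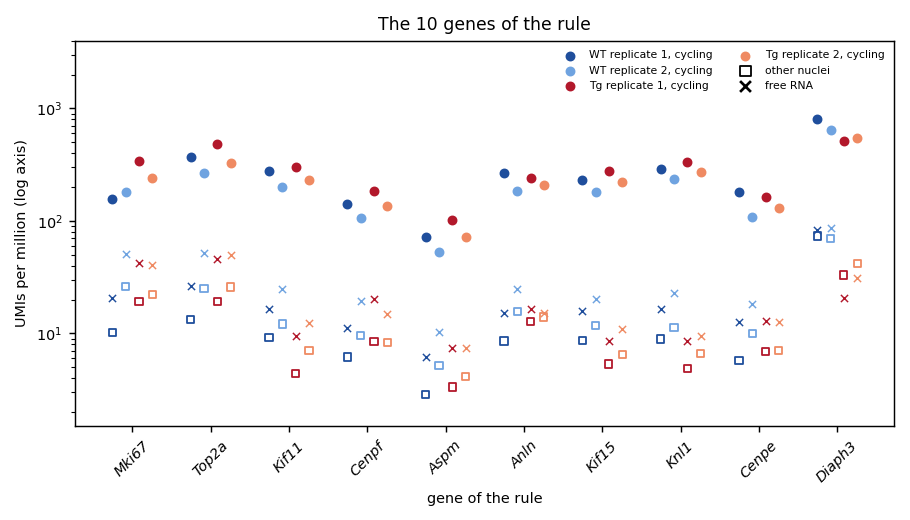
Level of each gene of the rule (CPM, log axis) in the cycling nuclei (filled points), the other nuclei of named lineages (open squares) and the free RNA (crosses) of each mouse. In every mouse the filled points lie above the squares and crosses, and Diaph3 is the gene whose WT points lie clearly above its Tg points in all 3 sets.

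Genes that the rule did not use were also higher in the cycling nuclei. The S list of 43 genes and the G2M list of 48 genes are the common phase lists with the genes of the rule left out. The S genes made up 21.0, 23.3, 27.8 and 23.6 UMIs per 10000 in the cycling nuclei of WT 1, WT 2, Tg 1 and Tg 2. In the other named nuclei they made up 5.48, 7.11, 5.60 and 6.31, and in the free RNA 6.62, 9.20, 6.36 and 7.63. The G2M genes made up 44.5, 35.1, 48.3 and 38.7 in the cycling nuclei, against 9.54, 10.9, 10.1 and 10.9 in the other nuclei. The groups of nuclei did not overlap, and the ratio was 3.28 to 4.97 for S and 3.22 to 4.79 for G2M genes. Since the nuclei were picked on mitotic RNA, these ratios are a description with no test. The same pattern held gene by gene, with 40 of 43 S genes and 46 of 48 G2M genes higher in the cycling nuclei of all 4 mice and median ratios of 3.81 and 7.58.

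Among the S genes with most UMIs, Pola1, the catalytic subunit of the polymerase that starts new strands, stood at 369, 414, 384 and 367 CPM, 6.57 times the other nuclei. The chromatin ATPase Atad2 stood at 234, 261, 302 and 289, a ratio of 4.62. Brip1, the helicase that works with BRCA1, stood at 151, 149, 206 and 170, a ratio of 15.7. The 4 mice thus lay near each other for Pola1 and Atad2, and Tg 1 was highest for Brip1. Of the G2M genes with most UMIs, the microtubule polymerase Ckap5 had a ratio of 2.84, the condensin subunit Smc4 of 2.90, the nuclear lamina protein Tmpo of 3.12 and the heterochromatin protein Cbx5 of 2.27. These genes also serve resting cells. Genes of the mitotic apparatus had larger ratios, with 28.5 for the chromosome kinesin Kif4, 17.9 for Kif23 of the central spindle and 15.6 for Prc1, which bundles the spindle midzone.

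By function, the 11 mitotic kinesins were all higher in the cycling nuclei of all 4 mice (median ratio 17.9, range 5.89 to 38.6), as were all 13 kinetochore and checkpoint genes (16.3), all 7 cytokinesis genes (15.6), all 20 genes of the replication fork and of repair (6.59) and all 11 condensin and cohesin genes (4.94). The 13 genes of the E2F, Rb and DREAM list were higher in all 4 mice too (3.49), among them the repressor Rbl1 (129, 126, 188 and 149 CPM, a ratio of 3.86). The cyclins and kinases were more mixed, with 8 of 12 higher in all 4 mice (median 3.16) and 4 with a ratio below 1, and so were the CDK inhibitors, with 3 of 7 (median 1.17). Ccnd3, a D-type cyclin, was lower in the cycling nuclei of every mouse, with 269, 765, 481 and 555 CPM against 422, 879, 550 and 645. The ratios of Ccnd2 and Ccnd1 were 0.87 and 0.76, and Cdk6, a kinase partner of the D cyclins, was at 1.54. Of the CDK inhibitors, Cdkn1a, the p53 target p21, was close to even (0.94), and Cdkn2c stood out with a ratio of 5.30 (58.8, 26.4, 22.2 and 17.99 CPM). These ratios mix lineages. Within alveolar macrophages 4 of the 7 inhibitors were higher in all 4 mice (median 1.54), and the summed list was 1.44 to 2.08 times the other nuclei. In dendritic cells the sum was 0.60 to 1.45 times the other nuclei. Of the 12 p53 target genes 1 was higher in the cycling nuclei of all 4 mice, with a median ratio of 0.91. Within alveolar macrophages the median of the p53 targets was 1.17. Their summed list was 1.16 to 1.35 times the other nuclei there and 1.05 to 1.15 times over all lineages.

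**Figure D2:**
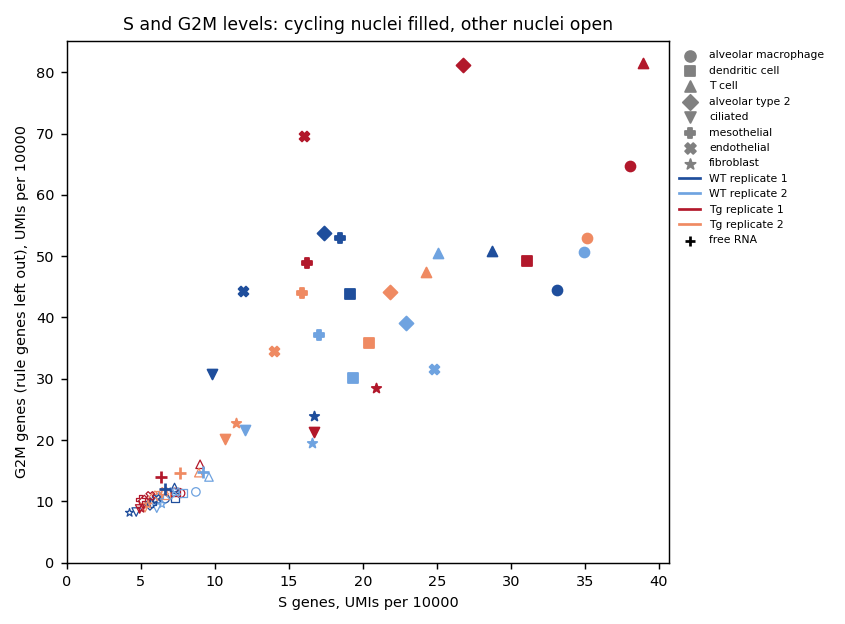
Summed level of the S genes (horizontal axis, UMIs per 10000) against that of the G2M genes without the genes of the rule (vertical axis, UMIs per 10000), for 8 lineages in each mouse. Filled symbols are cycling nuclei, open symbols the other nuclei of that lineage and plus signs the free RNA. The open symbols and the free RNA lie together near the origin, while every filled symbol lies above them in G2M genes and the alveolar macrophages lie far right.

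Each nucleus was called S-led or G2M-led by which of the lists gave it more UMIs. Of all cycling nuclei 454 (25.1%) were S-led and 1293 G2M-led, with 63 ties. The S-led share was 16.1% and 28.1% in WT mice and 24.8% and 26.4% in Tg mice. The other named nuclei, where most of these UMIs are at the level of free RNA, gave 19.1% to 22.3% by the same call, so the share alone does not mark nuclei in S phase. Genes outside both lists were compared between the S-led and G2M-led cycling nuclei, as ratios of UMIs summed over the 4 mice. Cyclin E1 (Ccne1), which drives entry into S phase, was 2.77 times as high in the S-led nuclei on 44 UMIs there and 42 in the G2M-led ones. Within alveolar macrophages its ratio was 1.61 on 14 and 17 UMIs, with 1 mouse the other way. E2f1 was at 35.8, 37.4, 89.5 and 33.4 CPM in the S-led and at 5.19, 17.2, 28.4 and 14.4 in the G2M-led nuclei of the 4 mice. Every S-led value of E2f1 thus lay above every G2M-led one, and the ratio was 2.67. The S-led nuclei of every mouse were also higher for the leading-strand polymerase Pole (ratio 2.40), E2f3 (2.25), Mybl2, which encodes B-Myb (2.17), the primase subunit Prim2 (1.94), Cdk2 (1.82) and Brca1 (1.79).

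Other genes were higher in the G2M-led nuclei. Cenpf was at 163, 143, 232 and 173 CPM in them and at 51.1, 42.2, 61.3 and 40.1 in the S-led nuclei. The mitotic cyclin Ccnb1 (ratio of S-led to G2M-led 0.27, on 13 and 130 UMIs), Aspm (0.36) and Cenpe (0.44) were lower in the S-led nuclei of every mouse. Cdkn2c had a ratio of 0.47 over all lineages and of 0.87 within alveolar macrophages, where 2 of the 4 mice went the other way. Kif15 and Diaph3 were near even, at 1.01 and 1.04. Mki67 and Top2a lay between these at 0.68 and 0.72, lower in the S-led nuclei of all 4 mice. Not every gene of mitosis lay on that side, since the condensin subunit Ncapg2 (1.75), the cohesin subunit Smc3 (1.32) and the centromere genes Cenpk (1.45) and Cenpp (1.20) were higher in the S-led nuclei of all 4 mice. Because the lineages differed in their S-led share, the ratios were also taken within alveolar macrophages alone. There E2f1 (1.92), Pole (1.81), E2f3 (2.11) and Mybl2 (2.36) were higher, and Cenpf (0.24), Aspm (0.39) and Mki67 (0.64) lower, in the S-led nuclei of every mouse.

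**Figure D3:**
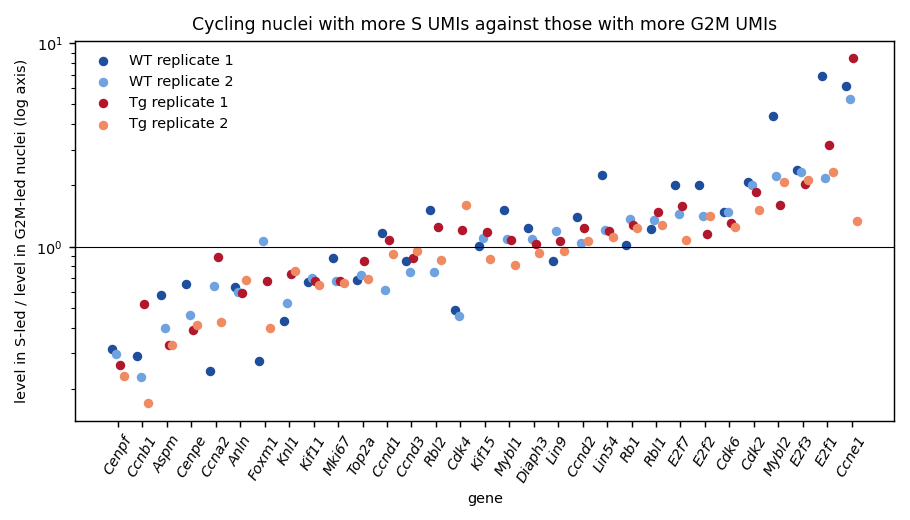
Ratio of the level in S-led to that in G2M-led cycling nuclei (log axis) for the genes of the rule and for cell cycle regulators outside the S and G2M lists, ordered by ratio, with a point for each mouse where both levels are above 0. Cenpf, Aspm and Cenpe lie below 1 and E2f1, E2f3, Mybl2 and Cdk2 above 1 in all 4 mice.

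Clusters were named by marker genes, and a name stands for nuclei like that lineage. Of the cycling nuclei 1276 (70.5%) fell in clusters with a lineage name, 446 (24.6%) in clusters that carried the markers of 2 classes, and 88 in other unnamed clusters. The clusters with markers of 2 classes held 22, 99, 117 and 208 of the cycling nuclei of WT 1, WT 2, Tg 1 and Tg 2, with a median of 5765.5 UMIs and 19.9 UMIs of the 10 genes per 10000, against 4071 UMIs and 28.8 in the named clusters. A high median doublet score (at least 0.7, the share of simulated pairs of barcodes among the nearest neighbours) was part of how these clusters were set apart, and whether each such barcode held more than 1 nucleus was not tested.

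Alveolar macrophages, the resident phagocytes of the airspace, were the lineage with most cycling nuclei, 629 or 34.8% of all. There were 68, 164, 190 and 207 of them, which is 5.52% and 7.69% of the alveolar macrophage nuclei in WT mice and 5.40% and 4.15% in Tg mice. Their S genes reached 33.2, 35.0, 38.0 and 35.2 UMIs per 10000, with 6.64 to 8.72 in the other alveolar macrophages. Their G2M genes reached 44.5, 50.8, 64.8 and 53.1, with 10.5 to 11.5 in the others. By the S to G2M call 27.9%, 32.9%, 26.3% and 29.95% of them were S-led. Pparg, the nuclear receptor that sets the alveolar macrophage fate, stood at 1147 CPM, 6.39 times the free RNA, and the mannose receptor Mrc1 at 1346, 2.80 times. Only 7 of their 12 markers were above the free RNA, and Chil3 (4819) was near it (4507). The summed markers were 115, 112, 74.6 and 94.5 per 10000 with a free RNA of 39.1, 76.9, 51.0 and 96.1, so in Tg 2 the sum did not exceed the free RNA.

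Dendritic cells, which carry antigen to T cells, had a higher share than alveolar macrophages in every mouse, at 9.45% and 8.39% in WT mice (24 and 26 nuclei) and 7.78% and 5.94% in Tg mice (20 and 46). With every barcode thinned to 1500 UMIs this order was kept only in WT 1 (5.12% against 2.68%), and dendritic cells were lower in WT 2, at 0.968% against 3.42%. All 8 of their markers lay above the free RNA with a median ratio of 7.78. Flt3, the receptor that drives their growth, was at 252 CPM against 12.1 in the free RNA. Clec9a and Xcr1, which mark the cross-presenting kind, were at 190 and 55.3 against 113 and 25.8 in the other dendritic cell nuclei. Cd209a, also on the marker list, was higher in the cycling nuclei too, so the rise was not limited to this pair. Ccr7, which marks migrating dendritic cells, was lower than in the other nuclei (13.01 against 63.4), and so were the markers Siglech and Ccl22. Whether the cycling nuclei leaned to 1 kind of dendritic cell was not tested. T cells had 67 cycling nuclei (22, 23, 6 and 16), with all 13 markers above the free RNA. Skap1, an adaptor of the T cell receptor, was at 2491 CPM, with 1616 in the other T cells, and Il7r, the receptor of a survival cytokine, was at 153 against 334. B cells had 42 cycling nuclei, 28 of them in WT 2, with all 10 markers above the free RNA. Monocytes and interstitial macrophages had 39.

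Of the epithelial lineages, alveolar type 2 cells, the surfactant makers, had 125 cycling nuclei (38, 49, 6 and 32). Lamp3 of the lamellar body (2.81 times the free RNA) and the factor Etv5 (3.36 times) were above the free RNA, while the surfactant gene Sftpc, at 2176 CPM against 7594, was below it. The summed markers were above the free RNA in WT mice (64.6 and 87.9 against 56.9 and 74.1) and below it in Tg mice (163 and 138 against 205 and 180). Ciliated cells, which are held to be past division, had 61 cycling nuclei (9, 16, 18 and 18). All 9 of their markers were above the free RNA (median ratio 8.63). These nuclei were deep, with a median of 8776 UMIs against 4053 in the other ciliated nuclei, and held 13.7 UMIs of the 10 genes per 10000. Their doublet score had a median of 0.82 against 0.73 in the other ciliated nuclei. Fibroblasts were alike in this, with 41 cycling nuclei, a median of 7601 UMIs against 3373.5 and a score of 0.82 against 0.75. In alveolar macrophages and T cells, by contrast, the score of the cycling nuclei was not above that of the others (0.53 against 0.57 and 0.55 against 0.63), and the same held for dendritic cells (0.70 against 0.73). The part of doublets in these counts was not tested. Alveolar type 1 cells had 30 cycling nuclei (score 0.76 against 0.61) and airway secretory cells 8 (0.78 against 0.49), of whose 6 markers 2 were above the free RNA. These 8 are not all that may be airway secretory. A larger cluster of 9450 barcodes, whose highest list was the airway secretory one, scored 0.35 and stayed unnamed. It held 48 cycling nuclei (17, 11, 12 and 8).

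Endothelial cells, which carry the transgene, had 46 cycling nuclei, 11 and 13 in WT mice and 7 and 15 in Tg mice, and lymphatic endothelial cells 20. The doublet score of the cycling endothelial nuclei was 0.76 against 0.59 in the other endothelial nuclei, and their UMIs were 1.97 times as many at the median. All 12 endothelial markers were above the free RNA, among them Pecam1 (811 CPM against 105) and Cdh5, the gene whose promoter drives the transgene (139 against 57.7). Their S genes stood at 11.9, 24.8, 16 and 14.0 UMIs per 10000 and their G2M genes at 44.3, 31.6, 69.6 and 34.5, so the S genes were highest and the G2M genes lowest in WT 2. Mesothelial cells, the lining of the pleura, had 47 cycling nuclei (7, 17, 9 and 14), with a doublet score of 0.65 against 0.51. Their defining factor Wt1 was at 331 CPM against 22.04 in the free RNA. Pericytes had 5, and no cluster was named smooth muscle.

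**Figure D4:**
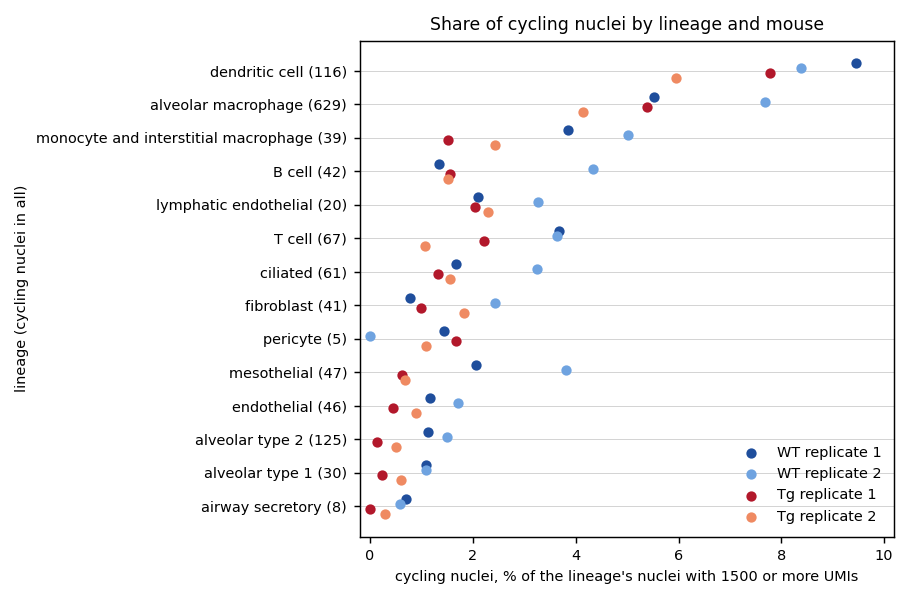
Cycling nuclei as a percentage of each lineage's nuclei with 1500 or more UMIs, a point for each mouse, with the number of cycling nuclei in brackets. Dendritic cells and alveolar macrophages lie at 4.15% to 9.45%, and at this threshold both Tg points lie left of both WT points in 10 of the 14 lineages, several of which overlap under other settings.

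The cycling share of all barcodes was compared between the genotypes. It was 0.943% and 1.37% in WT mice (1.16% ± 0.30, SD, n = 2) and 1.63% and 1.41% in Tg mice (1.52% ± 0.16, SD, n = 2). Both Tg mice were above both WT mice, by 0.36 percentage points on the mean, with p = 0.3333 in the exact two-sided permutation test, the smallest that 2 mice against 2 allow. Each value is 1 mouse, and each genotype had 2 mice. The permutation test estimates no spread, and the edgeR tests below share their estimate of it over genes or over lineages. This direction rested on the denominator. Among barcodes in named clusters the shares were 2.15% and 3.47% in the WT and 1.66% and 1.77% in Tg mice, a difference of -1.10 points (exact permutation p = 0.3333). Without both of the large unnamed clusters named above, the one almost all from WT mice and the one mostly from Tg 2, the difference was -0.98 points. The non-cycling barcodes of named clusters held 1.47 and 1.97 UMIs of the 10 genes per 10000 in WT mice. In Tg mice they held 1.18 and 1.43. Over all non-cycling barcodes the values were 1.74 and 2.61 against 1.12 and 1.46. A lower share can reflect fewer cycling nuclei, less RNA of the 10 genes per nucleus, fewer background UMIs of these genes or more captured resting nuclei. These cannot be told apart.

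Within the named clusters of a lineage, the cycling share was lower in Tg than in WT mice in alveolar type 2 and mesothelial nuclei. In alveolar type 2 nuclei it was 1.13% and 1.49% in the WT and 0.13% and 0.51% in Tg mice, a log2 fold change of -1.95 ± 0.44 (SE, fold 0.26, edgeR quasi-likelihood test on the counts with the lineage's nuclei as offset, adjusted p = 0.0021). In mesothelial nuclei it was 2.05% and 3.80% against 0.62% and 0.67% (-2.19 ± 0.56, fold 0.22, adjusted p = 0.0039). These were 2 of 14 lineages tested (14.3%), and 10 of the 14 had no overlap between the genotypes (71.4%), each lower in Tg at this threshold. With at least 20 UMIs of the 10 genes per 10000, 5 of 13 lineages were lower in Tg without overlap, while fibroblasts (fold 1.49) and alveolar type 1 cells (fold 2.67), on 11 and 5 cycling nuclei, were higher without overlap, and neither passed. With every barcode thinned to 1500 UMIs, 5 of 10 lineages had no overlap. Both calls were lost when any of the 4 mice was left out, and the alveolar type 2 fold was 0.39 without Tg 1 and 0.10 without Tg 2. Different clusters held the alveolar type 2 nuclei of the genotypes. Each mouse was centred on its own mean before clustering, and the part of this step in the split was not tested. A cluster with 96.7% and 91.0% of those of the WT mice, where 1.13% and 1.54% were cycling, held 21 and 147 Tg nuclei, with 4 cycling nuclei in Tg 2. A second cluster with 99.5% and 97.7% of those of the Tg mice, where 0.13% and 0.46% were cycling, held 111 and 295 WT nuclei, of which 0.90% and 1.02% were cycling. Clusters with markers of 2 classes were left out. The largest led by alveolar type 2 markers had 4 of 96 and 27 of 299 barcodes cycling in WT mice. In Tg mice it had 30 of 623 and 68 of 1270. Among those led by mesothelial markers, the one with most cycling nuclei had 0 of 11 and 4 of 41 in WT mice. In Tg mice it had 12 of 213 and 21 of 476. Other clusters led by these lists held fewer, not all with more in Tg mice. Their effect on the shares was not tested.

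The other lineages did not pass the test. T cells had 3.67% and 3.65% in the WT and 2.21% and 1.08% in Tg mice (-1.43 ± 0.53, edgeR, adjusted p = 0.055). They passed without the highest doublet scores (edgeR, adjusted p = 0.035) and with at least 20 UMIs of the 10 genes per 10000 (edgeR, adjusted p = 0.030). With every barcode thinned to 1500 UMIs they did not pass, at 2.00% and 2.38% in the WT and 1.85% and 0.47% in Tg mice. Endothelial nuclei, the cells with the transgene, had 1.17% and 1.70% against 0.45% and 0.89% (-1.06 ± 0.56, edgeR, adjusted p = 0.13), and with at least 20 UMIs of the 10 genes per 10000 the log2 fold change was -0.60 ± 0.62 (edgeR, adjusted p = 0.49). With every barcode thinned to 1500 UMIs the endothelial shares were 0.43% and 0.52% against 0.26% and 0.47%, and then overlapped. Without the highest doublet scores they passed, at 1.06% and 1.73% against 0.36% and 0.36% (-1.87 ± 0.75, edgeR, adjusted p = 0.035). When fewer such barcodes were left out, their number taken from the named clusters, neither endothelial nuclei (edgeR, adjusted p = 0.084) nor T cells (edgeR, adjusted p = 0.073) passed. Alveolar macrophages gave -0.48 ± 0.36 (edgeR, adjusted p = 0.27), and after thinning 2.68% and 3.42% in the WT and 3.92% and 2.20% in Tg mice, a log2 fold change of -0.01 ± 0.52. Dendritic cells gave -0.42 ± 0.45 (edgeR, adjusted p = 0.46). The balance of S and G2M was not shown to differ either. The S-led share of all cycling nuclei was 22.1% ± 8.44 (SD, n = 2) in WT and 25.6% ± 1.10 (SD, n = 2) in Tg mice (exact permutation p = 1.0), with the WT mice at either end of the range.

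Genes were then compared between Tg and WT mice over the summed UMIs of the cycling nuclei of each mouse. Of 13531 genes tested 821 passed (6.07%), 705 higher (5.21%) and 116 lower (0.857%) in Tg mice. In cycling alveolar macrophages alone 700 of 9109 passed (7.68%), 529 higher (5.81%) and 171 lower (1.88%), and in cycling dendritic cells 120 of 3879 (3.09%), 116 higher (2.99%) and 4 lower (0.103%). An unadjusted p under 0.05 was reached by 23.2%, 22.6% and 11.8% of the genes tested in these 3 comparisons. Few genes of the cell cycle lists were among them. In all cycling nuclei, 0 of 42 S genes tested passed by the edgeR quasi-likelihood test (median log2 0.28, with 0.01 over all genes, and 3 of the 42 at an unadjusted p under 0.05) and 1 of 48 G2M genes (median 0.11, 4 of the 48 at an unadjusted p under 0.05). By the same edgeR test 0 of the 12 cyclins and kinases, 6 CDK inhibitors, 11 mitotic kinesins, 13 kinetochore, 11 condensin and cohesin, 7 cytokinesis, 20 replication and repair and 12 p53 target genes tested passed, and at most 3 of a list had an unadjusted p under 0.05. DESeq2 called 1 gene of the G2M list and 0 of the other lists. In cycling alveolar macrophages edgeR called 0 of 39 S genes (3 at an unadjusted p under 0.05) and 1 of 43 G2M genes (9 at an unadjusted p under 0.05, all higher in Tg, with a median log2 of 0.30), and DESeq2 called 0 and 1. In dendritic cells edgeR called 0 of 10 S genes (1 at an unadjusted p under 0.05) and 0 of 20 G2M genes (0), and DESeq2 called 0 and 0.

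Of the genes on the cycle lists, Tubb4b and E2f7 passed. Tubb4b, a beta-tubulin of the G2M list, was at 38.7 and 23.9 CPM in the WT and 97.1 and 63.1 in Tg mice over all cycling nuclei (log2 1.37 ± 0.31, edgeR, adjusted p = 0.032). In cycling alveolar macrophages it was at 26.5 and 12.6 against 111 and 89.6 (2.60 ± 0.39, adjusted p = 0.0016). In the free RNA its log2 difference was 1.97, in the same direction. Tubb4b passed in 9 of 11 alternative settings over all cycling nuclei and in 10 of 10 in alveolar macrophages. Over all cycling nuclei the call was lost when alveolar macrophages were left out. E2f7, a repressor that E2F itself induces and that closes the E2F wave, was at 47.1 and 56.0 against 127 and 85.9 CPM over all cycling nuclei (0.98 ± 0.24, adjusted p = 0.047) and at 56.3 and 87.5 against 189 and 130 in cycling alveolar macrophages (1.07 ± 0.29, adjusted p = 0.044). Its free RNA went the other way (-0.63). E2f7 was not called by DESeq2 in either, nor over all cycling nuclei in named clusters alone or when alveolar macrophages were left out. It passed in 6 of 11 alternative settings over all cycling nuclei and in 7 of 10 in alveolar macrophages.

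Nearly all the genes that passed differed in the free RNA in the same direction. This held for 694 of the 705 higher genes (98.4%, against 41.4% of all genes tested) and 115 of the 116 lower ones (99.1%, against 58.6%). In cycling alveolar macrophages it held for 518 of 529 (against 36.8% of all genes tested) and for 171 of 171 (against 63.2%). The median log2 difference of the 705 genes was 2.04 in the cycling nuclei and 1.83 in the free RNA, which came from the same 4 libraries. Of 77 ribosomal protein genes tested, 76 were higher in all cycling nuclei (median log2 2.07, free RNA 2.67), as were 12 of 13 mitochondrial genes and 4 of 4 haemoglobin genes (median 4.07, free RNA 4.42), a grouping chosen after the values were seen. The globin genes summed to 1.45 and 0.70 UMIs per 10000 in the cycling nuclei of the WT and 19.0 and 12.5 in those of the Tg mice. The part of free RNA in these differences was not tested gene by gene.

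**Figure D5:**
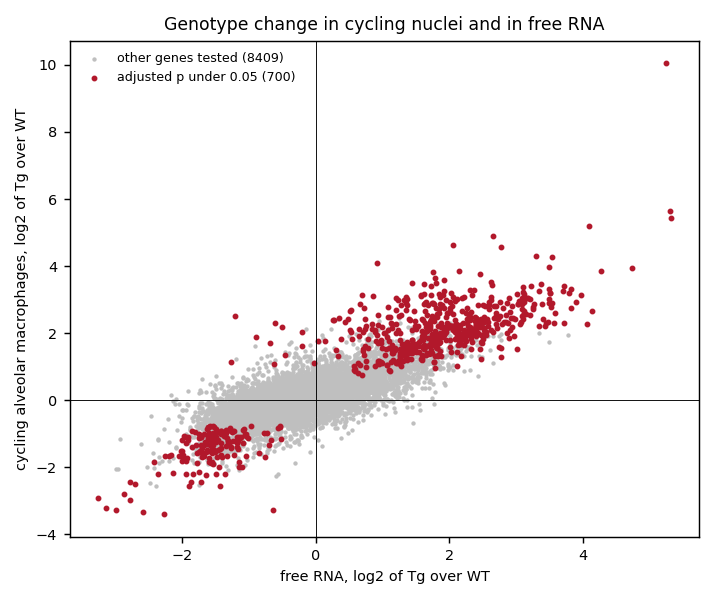
Log2 difference between Tg and WT mice in cycling alveolar macrophages (vertical axis) against that in the free RNA of the same libraries (horizontal axis), a point for each gene tested, with the 700 genes that passed in red and the other genes in grey. The red points lie in the upper right and lower left, and 11 lie above 0 in the nuclei and below 0 in the free RNA.

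The genes with the largest differences included secreted products of other lung cells. Bpifa1, an antimicrobial protein of the airway lining, had 9 and 1 UMIs in the cycling nuclei of the WT and 434 and 212 in those of the Tg mice (log2 6.14 ± 1.00, edgeR, adjusted p = 0.0083). In cycling alveolar macrophages it had 0 and 0 against 170 and 72 UMIs, at least 77.0-fold higher with a floor of 3 UMIs over the WT group. Slurp1, another secreted epithelial protein, rose by 5.19 there. Gm42439, a predicted gene, had 0 and 0 against 13 and 21 UMIs in all cycling nuclei and was at least 11.4-fold higher. Among the lower genes were the predicted gene Gm48099 (77.3 and 52.0 against 5.40 and 5.996 CPM, -3.49 ± 0.33, adjusted p = 0.0016), the secreted chitinase-like Chil4 (93.3 and 27.6 against 7.80 and 6.28, -3.09 ± 0.57), the calcium-activated chloride channel regulator Clca1 (635 and 99.5 against 64.8 and 37.1, -2.90 ± 0.71) and the anion exchanger Slc26a4 (502 and 165 against 15.6 and 69.1, -2.91 ± 0.62). For each of the last 3 genes WT 1 was more than 3 times as high as WT 2. Clca1 passed in 6 of 11 alternative settings and Chil4 and Slc26a4 each in 9 of 11. The log2 fold change of Clca1 ranged from -3.73 to -1.04 over these settings, and it did not pass in named clusters alone. DESeq2 did not call Clca1, Slc26a4 or Bpifa1 over all cycling nuclei, and Gm42439 did not pass without WT 2 or without Tg 1. Chil4, Slc26a4 and Gm48099 fell in cycling alveolar macrophages as well, and Slc26a4 in dendritic cells, and DESeq2 called Slc26a4 in neither. The lineages made up different shares of the cycling nuclei of each genotype. Alveolar type 2 nuclei, whose cluster with most WT nuclei had Slc26a4 as its leading gene, were 14.96% and 9.30% of them in WT mice and 1.46% and 5.18% in Tg mice, and the part of this make-up in the differences over all cycling nuclei was not tested.

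Further genes were lower in Tg mice in cycling alveolar macrophages. Il1b, the inflammatory cytokine interleukin 1 beta, was at 36.4 and 26.3 CPM in the WT and 1.80 and 3.58 in Tg mice (-3.29 ± 0.62, edgeR, adjusted p = 0.0070), on 11, 27, 1 and 3 UMIs. In the free RNA its log2 difference was -0.64. The interferon-induced GTPase Iigp1 (-2.58 ± 0.56, adjusted p = 0.015) and Tnip3, an inhibitor of NF-kappaB signalling (-3.29 ± 0.87, adjusted p = 0.039), fell too, with free RNA differences of -1.91 and -3.00. All 5 T cell markers tested in these nuclei had negative values (median -1.37, 1 passed), and so had both B cell markers tested (1 passed). Some markers of other lineages passed as higher in Tg. These were 4 of 6 mesothelial (median 1.93), 3 of 6 airway secretory (median 1.71), 3 of 9 alveolar type 2, 1 of 9 alveolar type 1 and 4 of 4 erythroid markers. Over all genes tested in these nuclei 5.81% passed as higher and 1.88% as lower. The part of other cells' RNA in these differences was not tested. In cycling dendritic cells the genes that fell were Slc26a4, Taco1 (605 and 521 against 113 and 144 CPM, -1.95 ± 0.33, adjusted p = 0.0042), which activates translation in mitochondria, Pcx, the pyruvate carboxylase (-1.70 ± 0.43, adjusted p = 0.045), and Gm26917 (-1.91 ± 0.31, adjusted p = 0.0032). Tnip3 passed in 7 of 10 alternative settings and Pcx in 5 of 9, neither with DESeq2. In the free RNA the differences were -3.26 for Slc26a4, -2.14 for Taco1, -1.68 for Pcx and -1.34 for Gm26917.

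A small set passed in the nuclei while the free RNA went the other way, 12 genes in all cycling nuclei, 11 in alveolar macrophages and 1 in dendritic cells. Gm37240, a predicted gene, was at 103 and 108 CPM in the WT and 419 and 253 in Tg mice over all cycling nuclei (1.62 ± 0.26, edgeR, adjusted p = 0.0073), and it passed in alveolar macrophages (2.04) and dendritic cells (2.11) too. Dna2, the nuclease-helicase of the replication fork, was at 38.7 and 64.4 against 124 and 100 (1.03 ± 0.26, adjusted p = 0.048) with a free RNA difference of -0.02. These genes were singled out after their values were seen.

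The non-cycling nuclei of the same lineages came from the same 4 mice and were fitted apart. In the other alveolar macrophages 1502 of 15386 genes passed (9.76%), 1080 higher (7.02%) and 422 lower (2.74%) in Tg mice, and in the other dendritic cells 700 of 10363 (6.75%), 579 higher (5.59%) and 121 lower (1.17%). Whether a gene's difference between the genotypes was larger or smaller in cycling nuclei was tested as such (edgeR interaction of genotype and cycling state). Of the genes, 12 of 13386 genes passed in alveolar macrophages (0.0896%, with 904 or 6.75% at an unadjusted p under 0.05) and 2 of 8688 in dendritic cells (0.023%, with 417 or 4.8%). For Diaph3 and Kif15, which the rule used, the interaction values are a description. Diaph3 was lower in Tg mice by 0.36 in cycling and by 1.29 on the log2 scale in the other alveolar macrophages.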

How the data were processed

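Single-nucleus libraries of the lung of 2 WT and 2 Tg mice, 1 a mouse, were numbered as in the labels. The authors counted reads on exons and introns against mm10 with Cell Ranger 6.1.1, and the deposited values are UMI counts of 32285 genes for every barcode, with no selection of nuclei and no pooling of mice. The authors' later steps (removal of multiplets and of free RNA, integration) are not in these counts, so free RNA and multiplets remain in the values given here.

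Barcodes with 1500 or more UMIs were kept. For lineages, counts were normalised, log-transformed and centred in each mouse on the mean of its non-cycling barcodes. The 2000 variable genes left out the genes of the rule and of the cycle lists. With 30 principal components and 15 neighbours, Leiden clustering of the non-cycling barcodes (leidenalg 0.10.2, igraph 0.11.9, resolution 1.0) gave 43 clusters. Each cycling nucleus was given the most frequent cluster among its 15 nearest non-cycling barcodes. A marker list was scored by its mean level, each gene scaled from 0 at the median to 1 at the highest cluster, over markers that reached 20 CPM and 3 times that median (at least 3). A cluster was named after its leading list when that score was at least 0.6, the next list was under 0.5 of it and at least 2 markers were among its top 100 genes. An unnamed cluster counted as one with markers of 2 classes when its leading list scored at least 0.2, the next at least 0.14 and its median doublet score was at least 0.7. Doublets were not removed in the main values. As an alternative, barcodes were scored against 2 simulated pairs per barcode with 50 neighbours, and the top 0.8% per 1000 barcodes were left out. Free RNA was the sum of the barcodes ranked 45000 to 90000 by UMIs. In all but Tg 1 these included many barcodes with 1000 or more UMIs, which may hold nuclei. Its log2 differences were taken with 0.1 CPM (UMIs per 1000000) added.

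UMIs of the cycling nuclei were summed per mouse, genes with too few counts were left out (filterByExpr, minimum count 10), and genotypes were compared with the edgeR 4.0.16 quasi-likelihood test (TMM, limma 3.58.1, R 4.3.3), with Benjamini-Hochberg adjustment over all genes tested and a threshold of 0.05. Cycling counts per lineage were tested in the same way with the lineage's nuclei as offset, and single shares by an exact two-sided permutation test over mice. Alternatives were DESeq2 1.42.0, DESeq2 size factors, no filter, thinning to 1500 UMIs, other thresholds and denominators, each mouse left out and the replicate number as a block. Tests were checked on simulated data. For the genotype tests, genes were drawn with a fixed dispersion and lineage counts with no spread between mice beyond counting. The checks therefore do not show how the tests behave at the spread of these mice. Other steps used Python 3.11.15, NumPy 2.4.6, SciPy 1.17.1, pandas 2.3.3, scikit-learn 1.9.0 and matplotlib 3.10.9.

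The members and gene lists were chosen with earlier results of these data known. Named were the 10 genes of the rule, the 4 genes with most UMIs of each cycle list and those that passed, and the 10 largest rises and falls with an adjusted p under 0.05 and no overlap, lineage markers left out. The free RNA and the doublet score were chosen after seeing the data as values to set beside the results.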

Additional observations from a re-analysis of the deposited data

Results flagged for a closer look

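A gene is listed here where its difference between Tg and WT mice was not the same size in cycling as in other nuclei of the same lineage, by the edgeR interaction test with a term for each mouse. In alveolar macrophages the genes with the smallest adjusted p were Sdk1, a synaptic adhesion gene, with an interaction of 1.29 ± 0.18 on the log2 scale (SE, edgeR, adjusted p = 0.00021), and Lockd, a long non-coding RNA next to the CDK inhibitor gene Cdkn1b, with 1.41 ± 0.20 (adjusted p = 0.00023). Both were lower in Tg mice in the other alveolar macrophages (-1.27 and -1.14) and not in the cycling ones (0.21 and 0.44), and their free RNA was lower in Tg mice (-1.75 and -1.52). Both were called in all 6 alternative settings.

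6 more genes had a positive interaction. Neil3, a DNA glycosylase of replicating cells, had an interaction of 1.47 ± 0.23 (edgeR, adjusted p = 0.0011) and Rad51b, a gene of recombination repair, 0.77 ± 0.13 (adjusted p = 0.0053). Parpbp, a PARP1-binding regulator of recombination, had 2.44 ± 0.44 (adjusted p = 0.0061) and the centriole gene Cep128 0.63 ± 0.13 (adjusted p = 0.031). Efcab11 had 1.17 and Pdcd1lg2, which encodes the immune ligand PD-L2, 1.38. Neil3, Rad51b, Parpbp and Efcab11 were called in 5 of 6 alternative settings, and Cep128 and Pdcd1lg2 in 4 of 6. In each of these 6 genes the cycling nuclei lay between -0.12 and 0.62, the other nuclei between -2.10 and -0.88 and the free RNA between -2.17 and -1.52.

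Pik3ap1, an adaptor of PI3K signalling, went the other way, with an interaction of -0.74 (cycling -0.20, other nuclei 0.44), called in 4 of 6 alternatives. So did the growth factor gene Nrg4 with -0.97 (cycling -0.84, other nuclei 0.06), which was called in 1 of 6 alternatives. In dendritic cells, Gm15883 had an interaction of -2.61 (0.65 in the cycling and 3.29 in the other nuclei) and Plpp3, a lipid phosphatase, -1.91 (-1.61 and 0.16), called in 3 and 1 of 6 alternatives. Both Gm15883 and Plpp3 were among the leading genes of the large unnamed cluster whose highest list was the airway secretory one. The log2 difference of the free RNA was -0.38 for Pik3ap1, -0.99 for Nrg4, 2.14 for Gm15883 and -1.26 for Plpp3, and its part in these values was not tested.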

How the results depend on the processing

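The difference in the cycling share of all barcodes (0.36 points) was -1.42 with at least 3000 UMIs, -1.10 in named clusters and, chosen after seeing the data, -0.98 without the 2 largest unnamed clusters described above, -0.25 in named clusters after thinning and -0.56 there with at least 20 UMIs of the 10 genes per 10000. Leaving out a mouse gave 0.15 to 0.57. The S-led difference (3.48 points) was -2.30 in alveolar macrophages alone and -2.49 to 9.46 with a mouse left out, lowest without WT 1. Lineages called (2) were 7 without the highest doublet scores, which removed 20.9% to 47.9% of a mouse's cycling nuclei, the main 2 when their number was taken from the named clusters, 1 with lineage by marker list and 0 to 0 with a mouse left out. The 7 were endothelial, mesothelial, alveolar type 1, alveolar type 2, ciliated, T and B cells. The marker list put 23282 to 39285 barcodes of a mouse under airway secretory (log2 1.01) and left 39 alveolar type 2 nuclei in Tg 1, so it tests no lineage.

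Genes called in all cycling nuclei (821) were 1793 without the filter and 534 without alveolar macrophages, and with a mouse left out 199 (without Tg 1) to 1550 (without WT 2, 1009 higher and 541 lower). In alveolar macrophages (700) they were 351 with DESeq2, 1170 without the filter and 444 (without Tg 1) to 1182 (without WT 2, 660 higher and 522 lower). In dendritic cells (120) they were 52 with DESeq2 and 235 without the highest doublet scores. Interaction calls were 30 without the filter and 5 to 58 with a mouse left out in alveolar macrophages (12), and in dendritic cells (2) 0 without the filter, 1 against nuclei without a UMI of the 10 genes and 0 to 6 with a mouse left out. Against nuclei without such UMIs the interaction of Diaph3 was -0.31. Those nuclei hold no Diaph3 UMI by selection, so this value only returns the change in the cycling nuclei and is no check. The causes were not tested. No named gene turned in direction between the genotypes, and over the alternatives 156 of their values were still called and 42 no longer called in all cycling nuclei, 191 and 20 in alveolar macrophages and 85 and 23 in dendritic cells.

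Same-numbered mice did not deviate together (correlations 0.03, -0.11 and 0.05 in all nuclei, alveolar macrophages and dendritic cells). A pairing by number was thus not seen, but 2 mice per genotype cannot show that it was absent. With the replicate number as a block 839, 994 and 146 genes and 2 lineages were called, E2f7 was not called over all cycling nuclei and the share difference was 0.36. With the numbers crossed, chosen after seeing the data, 1472 were called in alveolar macrophages. A cycling nucleus had a median of 4334 UMIs, which limits what can be seen of low genes.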
